A study of Homo sapiens with 12 samples.

Results

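HepG2 cells kept for 96 h in low-glucose DMEM (LGDMEM) were compared with HepG2 cells kept for the same time in EMEM, the medium in which the line was grown. HepG2, an established line from a human liver tumour, is a common stand-in for hepatocytes. The comparison takes the 3 LGDMEM and the 3 EMEM libraries, 6 of the 12 in the series, across all 10945 of 11546 rows of the count table that carry a gene symbol. The other 6 libraries are of high-glucose DMEM (HGDMEM) and of Plasmax, a medium modelled on human plasma. All cells were labelled wild type and seeded in EMEM with 10% heat-inactivated fetal bovine serum. After 24 h they were washed and received their medium with the same serum, which was renewed at 48 h, so EMEM cells stayed in a known medium and LGDMEM cells changed theirs. The labels give no glucose or amino acid concentrations of the media and do not say whether the replicates are separate cultures. The p-values below therefore rest on the spread among these libraries, and that spread may be technical.

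Cells sense glucose partly through the transcription factors MondoA and ChREBP, which with their partner MLX bind carbohydrate response elements when glucose phosphates accumulate. Stress on protein synthesis or folding is sensed by other routes. Kinases that phosphorylate eIF2α favour translation of ATF4, which induces CHOP (encoded by DDIT3), amino acid transporters and biosynthetic enzymes, while the unfolded protein response raises chaperones of the endoplasmic reticulum (ER) through ATF6 and XBP1. Hepatocytes, which secrete much protein, carry a large ER, and they also release stress-responsive proteins such as GDF15 into the blood.

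The 6 libraries held 4131093 to 5816144 deposited counts, which is less than their full depth because rows of low counts were taken out before deposit. Levels below are in CPM, counts scaled to library size with TMM factors, and are given for replicates 1, 2 and 3 in that order. QuantSeq reads the 3′ ends of transcripts, and levels are compared here between libraries, not between genes. All 10 hepatocyte line markers, among them ALB, AFP and HNF4A, were measured, and their summed level was 21371 to 23861 CPM in LGDMEM and 22431 to 22966 CPM in EMEM. Of 12 leukocyte markers 3 were measured (CD14, CD68 and LYZ), with summed levels of 2122 to 2885 CPM in LGDMEM and 2657 to 3294 CPM in EMEM. The B-cell, T-cell and pan-leukocyte markers were not among them. LYZ made up nearly all of these sums, and CD68, a lysosomal protein of macrophages and other cells, lay in the other direction. CD68 was at 8.58, 11.0 and 9.06 CPM in LGDMEM and 3.16, 2.31 and 1.26 CPM in EMEM, without overlap (2.09, edgeR adjusted p = 0.0926). It was called without LGDMEM 1 (edgeR adjusted p = 0.0468), its lowest LGDMEM library, whose omission raises the fold change by construction. Of 14 endothelial and stromal markers 2 were measured, at 4.54 to 12.9 CPM in LGDMEM and 5.83 to 9.79 CPM in EMEM. Mitochondrially encoded genes took 9.80% to 12.2% of counts in LGDMEM and 10.2% to 12.3% in EMEM.

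The LGDMEM libraries differed more from each other than those of EMEM did, which bears on every result below. Over the 7806 genes whose mean over the 6 libraries reached 10 CPM, LGDMEM 1 and LGDMEM 3 were 0.57 log2 units apart (root mean square), against 0.41 to 0.43 for the pairs within EMEM. LGDMEM 1 was 0.39 from EMEM 1, nearer than to either of the other LGDMEM libraries (0.46 and 0.57). LGDMEM 2 was likewise nearer to EMEM 2 (0.43) than to LGDMEM 1 (0.46) or LGDMEM 3 (0.48). LGDMEM 3 was nearest to LGDMEM 2 (0.48) and 0.50 to 0.57 from the EMEM libraries. Between LGDMEM 1 and LGDMEM 3, 7.49% of these genes were at least 2-fold apart, while LGDMEM 1 and 2 gave 3.60%, LGDMEM 2 and 3 gave 4.45%, and EMEM pairs 2.10% to 2.87%. The biological coefficient of variation estimated within LGDMEM was 0.222, and in EMEM it was 0.174. Results are therefore given for all 3 LGDMEM libraries and, where it matters, without single ones.

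With all libraries, 8 genes differed between LGDMEM and EMEM, 2 higher and 6 lower in LGDMEM, which is 0.0731% of the genes tested (edgeR's quasi-likelihood test, Benjamini-Hochberg adjusted p under 0.05, the rule meant by "called", "rose" and "fell" below). At an unadjusted p under 0.05 there were 866. DESeq2 called 63 of the 7972 genes to which it gave an adjusted p (0.790%), and edgeR with the replicate number as a block called 15 (0.137%). In bulk libraries, fewer cells that express a gene and less of its RNA per cell cannot be told apart. The genes that fell were TXNIP, CARHSP1, C1D, SOBP, MXRA8 and FGB, and those that rose were SAT2 and SDF2L1. SAT2 and TXNIP aside, these calls were lost when LGDMEM 2, EMEM 1 or EMEM 2 was left out.

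TXNIP, which encodes an arrestin-like protein that binds thioredoxin and limits glucose uptake, had the largest fold change of the called genes. Its level was 1.01, 5.50 and 4.53 CPM in the LGDMEM libraries and 57.0, 20.3 and 34.1 CPM in EMEM. Every LGDMEM library was below every EMEM library, and the means were 3.68 ± 2.36 and 37.1 ± 18.6 CPM (SD, n = 3 each). The log2 fold change was −3.26 (SE 0.39, edgeR adjusted p = 0.00126). In HGDMEM the level was 43.9, 30.1 and 51.2 CPM, and LGDMEM was also lower than HGDMEM in the direct test (−3.44, edgeR adjusted p = 0.00057). That comparison called 7 genes, 0.0640% of those tested. ARRDC4, a related arrestin gene, had no count in any LGDMEM library and 1 count over the EMEM libraries, too few for a fold change.

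The stretch of the TXNIP promoter below is shown because TXNIP is a textbook target of MondoA and ChREBP and carries their element just upstream of its start. It lies at chr1:145996611-145996707 on the minus strand (RefSeq promoter windows, GRCh38.p14, not the build of the count table) and runs from 128 to 32 bases before the RefSeq start. Capitals mark the match to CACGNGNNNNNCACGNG, searched on both strands.
TXNIP: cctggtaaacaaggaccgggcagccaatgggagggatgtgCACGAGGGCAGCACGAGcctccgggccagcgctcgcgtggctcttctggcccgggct
The match ends 72 bases before the start. It was found in 20 of 35116 promoter windows of 300 bases, 0.057% of them, and of the 8 genes with a window in the list of glucose-sensing and ChREBP targets TXNIP alone had it. The letters say nothing about binding in these cells.

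No other member of that list was called. Of 14 measured glucose-sensing and ChREBP target genes, 6 were above 0, and the median log2 fold change was −0.12. Over all genes tested, 49.9% were above 0 and the median was 0.00. MLX itself was at 34.3, 25.4 and 37.4 CPM in LGDMEM and 20.6, 28.3 and 21.0 CPM in EMEM, and MLXIP, which encodes MondoA, at 25.7, 38.7 and 21.5 and 42.5, 39.2 and 36.0 CPM.

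SAT2, a member of the polyamine and diamine acetyltransferase family, rose with little spread. Its level was 113, 121 and 113 CPM in LGDMEM and 41.5, 52.2 and 55.3 CPM in EMEM, so the groups did not overlap (log2 fold change 1.22, SE 0.15, edgeR adjusted p = 0.00126). SAT2 was the called gene that passed in all 17 alternative analyses. In HGDMEM it was at 82.9, 91.4 and 105 CPM and was called there against EMEM as well (0.90, edgeR adjusted p = 0.0192), in a comparison that shares the EMEM libraries and called 18 genes (0.164%). Its relative SAT1, which acetylates spermidine and spermine, was at 125, 235 and 359.8 CPM in LGDMEM and 140.1, 191 and 171 CPM in EMEM and was not called (0.52).

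CARHSP1, an RNA-binding cold-shock domain protein, was at 132, 106 and 144 CPM in LGDMEM and 801, 730.3 and 617 CPM in EMEM, a log2 fold change of −2.49 (SE 0.45, edgeR adjusted p = 0.0379). All 3 LGDMEM libraries were low, and the HGDMEM libraries were split, at 601, 194 and 184 CPM. C1D, a cofactor of the nuclear RNA exosome, was at 19.2, 18.1 and 20.8 CPM in LGDMEM and 43.7, 63.9 and 37.2 CPM in EMEM (−1.32, SE 0.22, edgeR adjusted p = 0.035). HGDMEM had 58.1, 52.5 and 54.1 CPM of C1D, and LGDMEM was lower than HGDMEM too (−1.50, edgeR adjusted p = 0.00527).

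FGB, the fibrinogen beta chain, fell by less than the other called genes and was at 858, 750.1 and 711 CPM in LGDMEM and 1201, 1107 and 1265 CPM in EMEM (−0.62, SE 0.11, edgeR adjusted p = 0.0379). FGA, the alpha chain, was at 801, 791 and 724 and 1099, 1026 and 1072 CPM, again without overlap, but was not called (−0.47, edgeR adjusted p = 0.112). Of 16 fibrinogen and coagulation genes FGB was the 1 called, and the list median was −0.09. DESeq2 called 4 of the 16, beside 0.790% of all genes, with FGA, FGB and the gamma chain FGG lower and SERPINC1 higher. SERPINC1, antithrombin, lay in the other direction at 113, 92.4 and 176 CPM against 70.6, 59.6 and 79.7 CPM (0.86, not called).

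MXRA8, a matrix-remodelling membrane protein, was at 54.5, 67.8 and 70.6 CPM in LGDMEM and 115, 111 and 109 CPM in EMEM (−0.79, SE 0.14, edgeR adjusted p = 0.0379). Its level in HGDMEM, 65.6, 61.4 and 63.7 CPM, was inside the LGDMEM range, and it was called against EMEM there as well (−0.81). It was the called member of 17 mesenchymal and matrix genes, of which 3 were above 0 (median −0.23). SOBP, a homolog of the fly sine oculis binding protein, fell with 51.0, 38.9 and 31.5 CPM in LGDMEM and 73.1, 79.7 and 73.8 CPM in EMEM (−0.90, SE 0.16, edgeR adjusted p = 0.0379).

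**Figure D1:**
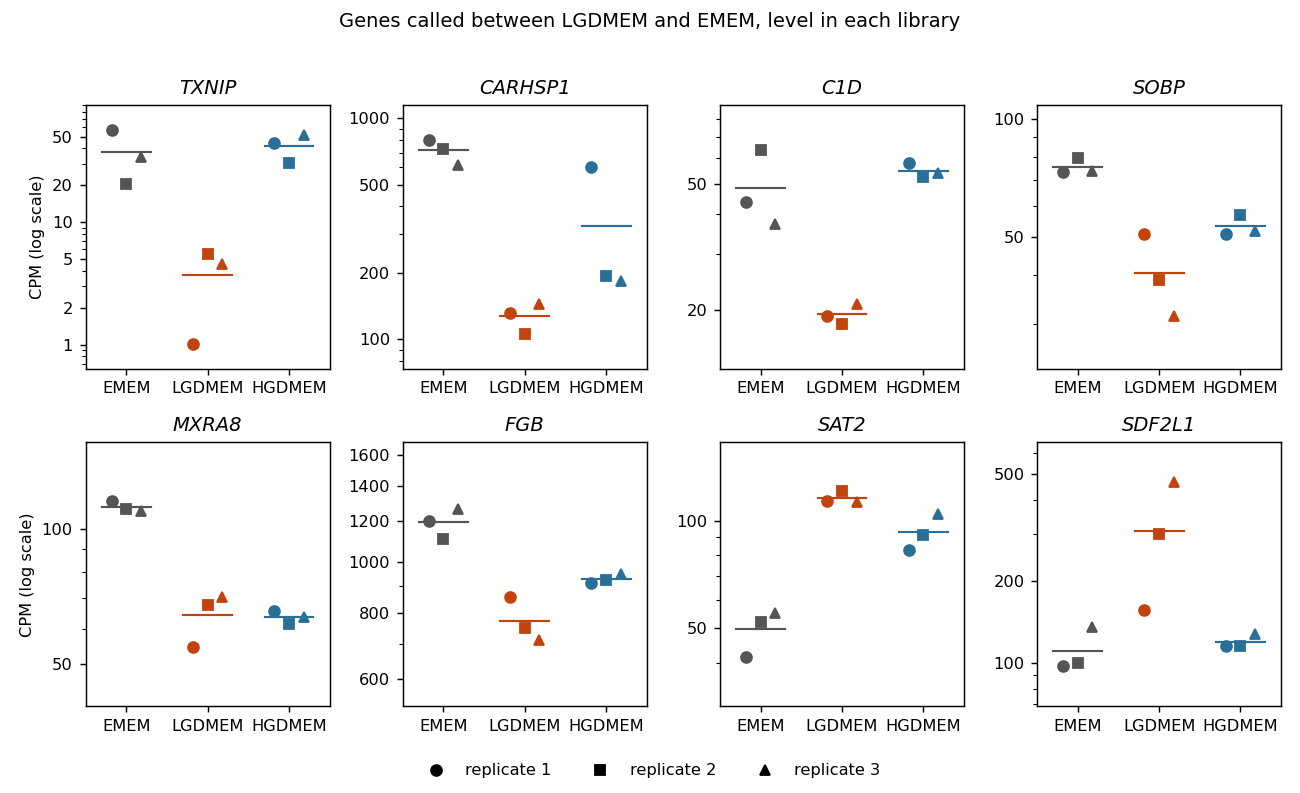
Level of the 8 called genes in each library (CPM, log axis), with 1 point per library, shapes for replicate numbers and a line at the mean of each medium. In every panel the LGDMEM points lie apart from the EMEM points, and in SDF2L1 the LGDMEM points are spread from 157 to 466 CPM.

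SDF2L1, an ER protein that works with the chaperone HSPA5, is the called gene that belongs to a stress list. It was at 157, 300.4 and 466 CPM in LGDMEM and 96.8, 100.0 and 135 CPM in EMEM, so LGDMEM 1 was closest to EMEM and LGDMEM 3 farthest. The log2 fold change was 1.47 (SE 0.27, edgeR adjusted p = 0.0379). The value was 1.49 without LGDMEM 2 (edgeR adjusted p = 0.123) and 1.05 without LGDMEM 3 (edgeR adjusted p = 0.0987), neither of them called. Without LGDMEM 1 it was 1.79 (edgeR adjusted p = 0.000179). HGDMEM had 115, 115 and 127 CPM.

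The other ER chaperones and folding enzymes showed the same order of LGDMEM libraries. Of 25 measured members SDF2L1 was called, 23 had a log2 fold change above 0, and the median was 0.31. Their mean log2 level, taken relative to the EMEM mean, was −0.09, 0.21 and 0.96 in LGDMEM 1, 2 and 3 and −0.06, 0.05 and 0.01 in EMEM. LGDMEM 1 was thus at the level of EMEM, and LGDMEM 3 stood well above. Among the 23 members of at least 10 CPM, LGDMEM 3 was the highest LGDMEM library in 23 and LGDMEM 1 the lowest in 21. Over all 7806 genes of at least 10 CPM, LGDMEM 3 was highest in 2862 and lowest in 2809. LGDMEM 1 was lowest in 2772 of them and highest in 2671, and LGDMEM 2 was highest in 2273. In 11 of the 23, the LGDMEM libraries spanned at least 2-fold, and in EMEM 0 did.

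HSPA5 (BiP), the main ER chaperone of the Hsp70 family, was at 1482, 2149.9 and 5349.9 CPM in LGDMEM and 1671, 1505 and 1844 CPM in EMEM. LGDMEM 1 lay below every EMEM library and LGDMEM 3 far above them, and the gene was not called (0.84, SE 0.29, edgeR adjusted p = 0.42). HYOU1, an ER chaperone and exchange factor of HSPA5, was at 346, 500.3 and 1279 CPM, while its 3 EMEM values were 376, 369.9 and 377 CPM (0.92, not called). Both were near 0 without LGDMEM 3, at 0.12 and 0.18.

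HSP90B1 (GRP94), the Hsp90 of the ER, was at 603, 809.9 and 1742 CPM in LGDMEM and 764, 827 and 819 CPM in EMEM, and its log2 fold change of 0.39 turned to −0.18 without LGDMEM 3. CRELD2 and MANF are small proteins of the ER that are also secreted under stress. CRELD2 was at 109.5, 119.7 and 243 CPM against 82.5, 70.1 and 89.4 CPM in EMEM, and the groups did not overlap (0.97, edgeR adjusted p = 0.112). MANF was at 221, 315 and 569 CPM against 174, 198 and 231 CPM (0.87). The co-chaperone DNAJB9 was at 20.9, 51.5 and 79.9 CPM in LGDMEM and 15.3, 29.2 and 23.8 CPM in EMEM (1.15).

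The promoters of 7 of the 24 members of this list with a RefSeq window (29.2%) matched the ER stress response element, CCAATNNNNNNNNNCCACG searched on both strands, beside 27 of all 35116 windows (0.0769%). This element is the textbook site of NF-Y and ATF6, so 3 of the matches are shown, with capitals for the element and each written along its gene's own strand (GRCh38.p14).
HSPA5: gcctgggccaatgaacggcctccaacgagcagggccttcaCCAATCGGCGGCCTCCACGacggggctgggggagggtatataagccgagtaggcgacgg
HSP90B1: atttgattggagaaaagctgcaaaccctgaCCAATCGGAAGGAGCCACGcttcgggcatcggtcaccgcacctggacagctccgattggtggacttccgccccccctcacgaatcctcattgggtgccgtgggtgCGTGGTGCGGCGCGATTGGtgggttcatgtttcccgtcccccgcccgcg
CRELD2: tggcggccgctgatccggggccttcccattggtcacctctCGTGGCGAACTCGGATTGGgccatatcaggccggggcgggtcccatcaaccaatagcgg
The HSPA5 stretch lies at chr9:125241351-125241449 (minus strand), HSP90B1 at chr12:103930186-103930369 (plus strand) and CRELD2 at chr22:49918514-49918612 (plus strand). In CRELD2 and at the second HSP90B1 match, the element reads in the opposite direction. The windows of SDF2L1, HYOU1 and MANF held no match to these letters. Members with and without a match were therefore both among those highest in LGDMEM 3.

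Genes of the unfolded protein response and of ER-associated degradation had a median of 0.12 over 22 members, none of them called with all libraries, and list levels of −0.09, 0.08 and 0.48 in LGDMEM. HERPUD1, which helps move misfolded proteins out of the ER, was at 117, 493 and 447 CPM in LGDMEM and 104, 178 and 161 CPM in EMEM (1.26, SE 0.35, edgeR adjusted p = 0.243). Unlike HSPA5, it was highest in LGDMEM 2. ERN1, which encodes the sensor IRE1α, was at 11.4, 14.5 and 34.0 CPM against 6.80, 14.4 and 7.78 CPM, and CREB3L3, a liver ER-bound transcription factor, was at 9.59, 15.7 and 18.1 CPM against 23.3, 35.2 and 53.6 CPM (−1.36, not called).

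ATF4-CHOP stress regulators were high in LGDMEM 2 and LGDMEM 3 alike. Of 19 measured members 17 were above 0 and 0 were called with all libraries. The median log2 fold change was 0.51, or 0.45 when the gene at or under the floor of 3 counts was left out. List levels relative to the EMEM mean were −0.11, 0.84 and 0.86 in LGDMEM and −0.30, 0.20 and 0.10 in EMEM, where replicate 1 was also the lowest. Among 16 members of at least 10 CPM, LGDMEM 1 was lowest in 12, LGDMEM 2 was highest in 9, and 7 spanned at least 2-fold, against 3 in EMEM.

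DDIT3, which encodes the transcription factor CHOP, was at 31.0, 128 and 115 CPM in LGDMEM and 19.4, 36.1 and 27.3 CPM in EMEM. LGDMEM 1 fell within the EMEM range, and LGDMEM 2 and 3 were above all EMEM libraries. The log2 fold change was 1.72 (SE 0.35, edgeR adjusted p = 0.0826), short of the threshold against EMEM. It passed with DESeq2 (adjusted p = 0.0303) and in edgeR with the replicate block (adjusted p = 0.0339). HGDMEM had 16.5, 21.2 and 20.5 CPM, and against it DDIT3 was higher in LGDMEM (2.24, edgeR adjusted p = 0.0122).

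SESN2, a restrainer of mTORC1, was at 27.5, 72.5 and 59.5 CPM in LGDMEM and 18.7, 28.7 and 21.7 CPM in EMEM (1.21). NUPR1, a small stress-induced nuclear protein, was at 19.9, 74.5 and 61.4 and 13.3, 28.7 and 25.2 CPM (1.21). DDIT4 (REDD1), another mTORC1 inhibitor, was at 61.8, 235 and 119 and 37.4, 82.4 and 64.2 CPM (1.17). In all 3, LGDMEM 1 lay within the EMEM range. PPP1R15A (GADD34), the phosphatase subunit that reverses eIF2α phosphorylation, was at 26.5, 36.6 and 41.2 CPM against 15.5, 22.4 and 23.4 CPM, with every LGDMEM library above every EMEM library (0.76, not called). The pseudokinase TRIB3 was at 60.8, 106 and 119 against 32.0, 63.4 and 74.9 CPM, and CEBPB at 284, 620.0 and 622 against 291, 416 and 362 CPM (0.51). ATF4 mRNA itself, which is regulated mainly in translation, was at 1792, 2257 and 2446 CPM in LGDMEM and 1685, 2279 and 1842 CPM in EMEM (0.16).

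**Figure D2:**
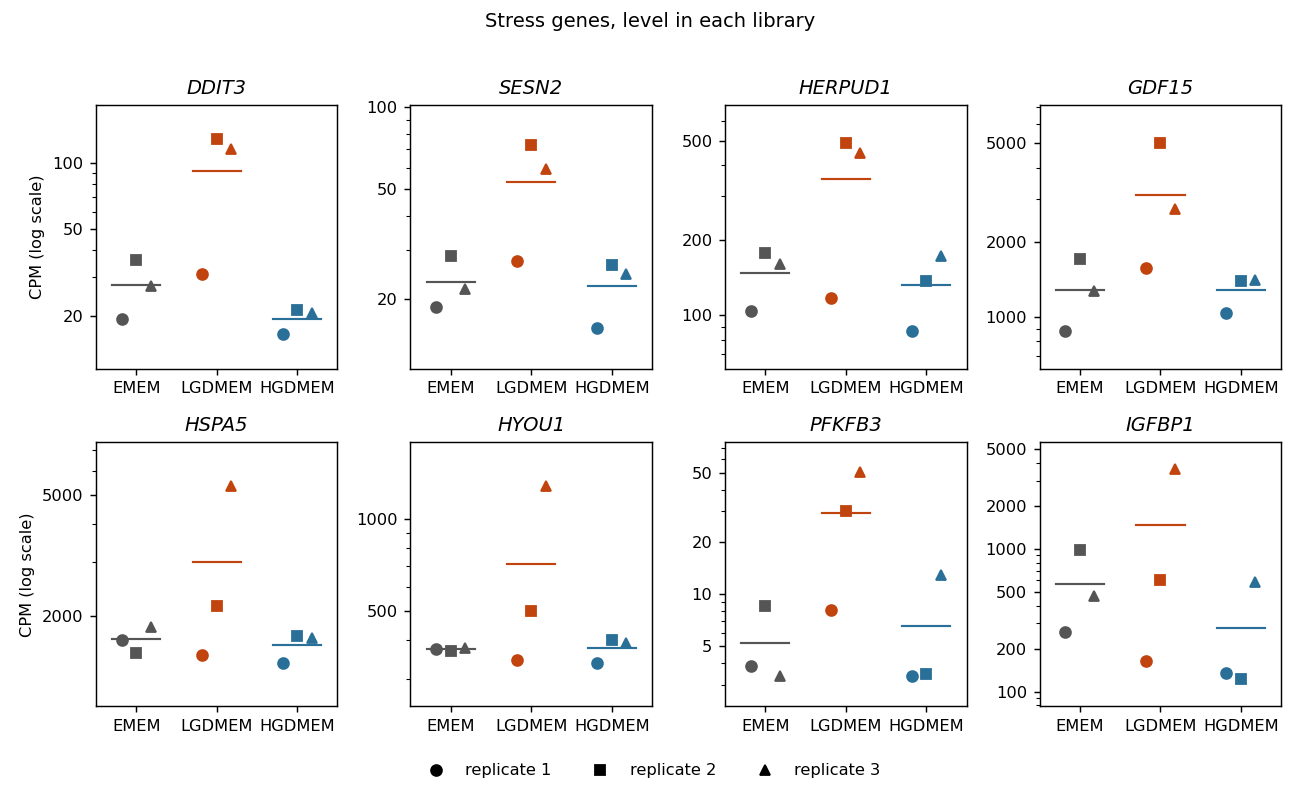
Level of 8 stress genes in each library (CPM, log axis), with 1 point per library, shapes for replicate numbers and a line at the mean of each medium. In DDIT3, SESN2, HERPUD1 and GDF15 both LGDMEM 2 and LGDMEM 3 are high and LGDMEM 1 is near EMEM, while in HSPA5, HYOU1 and IGFBP1 LGDMEM 3 stands above all other libraries.

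Amino acid genes downstream of ATF4 followed LGDMEM 3 more than LGDMEM 2. For 14 amino acid transporters the median log2 fold change was 0.32 with 12 above 0, and list levels were −0.32, 0.27 and 0.62 in LGDMEM and −0.06, 0.08 and −0.02 in EMEM. Without LGDMEM 3 that median was 0.00. SLC3A2, the shared heavy chain of several amino acid exchangers, was at 129.7, 191 and 286 CPM against 127, 106 and 145 CPM (0.69). For 12 amino acid and one-carbon synthesis genes the median was 0.25, with LGDMEM 3 highest in 11. CTH, which makes cysteine from cystathionine, was at 14.6, 39.7 and 65.2 CPM in LGDMEM and 10.9, 21.7 and 11.4 CPM in EMEM (1.43, not called), and GOT1, the cytosolic aspartate aminotransferase, at 194, 255 and 399 and 137, 183 and 159 CPM. For 20 cytosolic aminoacyl-tRNA synthetases the median was 0.16, with 18 above 0. Their list levels were −0.05, 0.13 and 0.29 in LGDMEM and −0.08, 0.13 and −0.06 in EMEM. WARS, for tryptophan, ran from 21.2 CPM in LGDMEM 1 to 103 CPM in LGDMEM 3 with 33.0, 27.9 and 29.9 CPM in EMEM. QARS (−0.59) and HARS (−0.58) lay in the other direction. No member of these 3 lists was called with all libraries.

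Targets of hypoxia-inducible factor (HIF) also had their highest level in LGDMEM 3. Of 31 measured members 27 were above 0, 0 were called, and the median was 0.41. List levels were 0.03, 0.59 and 1.23 in LGDMEM and −0.22, 0.29 and −0.07 in EMEM. Among 22 members of at least 10 CPM, LGDMEM 3 was highest in 20, and 10 spanned at least 2-fold in LGDMEM against 4 in EMEM. Without LGDMEM 3 the median was 0.12. In 4 of the 22 every LGDMEM library was above every EMEM library (5.82% of all 7806 genes).

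PFKFB3, which makes the glycolytic activator fructose 2,6-bisphosphate, was at 8.08, 30.1 and 50.5 CPM in LGDMEM and 3.88, 8.54 and 3.37 CPM in EMEM (2.46), and NDRG1 at 127, 261 and 677 against 107, 257 and 184 CPM (0.96). EPO, the hormone of red cell production, was without overlap at 21.5, 18.1 and 32.8 CPM against 5.34, 9.08 and 7.78 CPM (1.69, edgeR adjusted p = 0.146). ADM, the vasodilator peptide adrenomedullin, was also without overlap at 24.2, 31.8 and 33.5 against 17.2, 16.2 and 10.7 CPM (1.02). VEGFA, an angiogenic factor, was at 40.4, 89.6 and 79.9 CPM with LGDMEM 1 lowest, and at 50.5, 46.8 and 50.5 CPM in EMEM. The lactate dehydrogenase gene LDHA was at 716, 727 and 2105 CPM in LGDMEM and 712, 715 and 764 CPM in EMEM, so that its log2 fold change of 0.70 became −0.02 without LGDMEM 3. The HIF regulators themselves, 6 genes including HIF1A at 95.9, 112 and 106 CPM against 88.4, 85.3 and 99.1 CPM, had a median of 0.29 and none called.

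The list named stress-induced hepatokines holds proteins that liver cells secrete, not all of them known for stress. Its member AHSG is also on the list of mature hepatocyte genes. The hepatokines had the largest list median at 1.06 over 11 measured members, with 9 above 0 and 0 called. This median is the value of ANGPTL4, a gene of few counts (30 in EMEM and 59 in LGDMEM). Of the 11 members 8 reached 10 CPM. List levels were −0.32, 0.83 and 1.40 in LGDMEM and −0.50, 0.49 and 0.01 in EMEM, where EMEM 2 was the highest. Without LGDMEM 3 the median was −0.26, on the other side of 0. GDF15, a hormone that reduces appetite, was at 1572, 5042 and 2720.2 CPM in LGDMEM and 880.4, 1709 and 1273 CPM in EMEM, with LGDMEM 2 highest and LGDMEM 1 inside the EMEM range (1.27, SE 0.28, edgeR adjusted p = 0.112). STC2, a secreted glycoprotein, was at 175, 503 and 488 against 131, 234 and 203 CPM (1.03). IGFBP1, which binds insulin-like growth factors, was at 163, 599.9 and 3619 CPM in LGDMEM and 263, 981 and 469 CPM in EMEM, and its log2 fold change of 1.35 (SE 0.74) turned to −0.58 without LGDMEM 3. ANGPTL8, a regulator of lipoprotein lipase, had all LGDMEM libraries above all EMEM libraries, at 13.4, 27.7 and 12.9 and 2.67, 3.38 and 6.52 CPM (2.10, edgeR adjusted p = 0.051). It was called against EMEM with RLE scaling (edgeR adjusted p = 0.0478), with library-size scaling (edgeR adjusted p = 0.0461) and with DESeq2 (adjusted p = 0.000198). In HGDMEM, ANGPTL8 was at 18.2, 12.9 and 26.4 CPM and was called against EMEM (2.18, edgeR adjusted p = 0.0284).

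Cell cycle and DNA replication genes ran in the opposite order. All 38 measured members had LGDMEM 3 as the lowest LGDMEM library, and 35 had LGDMEM 1 as the highest. List levels were 0.11, −0.22 and −0.84 in LGDMEM and 0.18, −0.24 and 0.06 in EMEM. The median log2 fold change was −0.25 with 3 members above 0 and 0 called, and in 2 of the 38 every LGDMEM library was below every EMEM library (6.53% of all 7806 genes). The licensing helicase subunit MCM7 was at 97.4, 64.9 and 38.5 CPM in LGDMEM and 105, 87.6 and 200.1 CPM in EMEM (−0.97), and the S-phase transcription factor E2F1 at 123, 68.4 and 62.9 and 156, 92.6 and 124 CPM (−0.55). The mitotic kinesin KIF11 was at 27.8, 20.2 and 7.70 CPM in LGDMEM, beside 12.1, 19.6 and 15.6 CPM in EMEM.

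**Figure D3:**
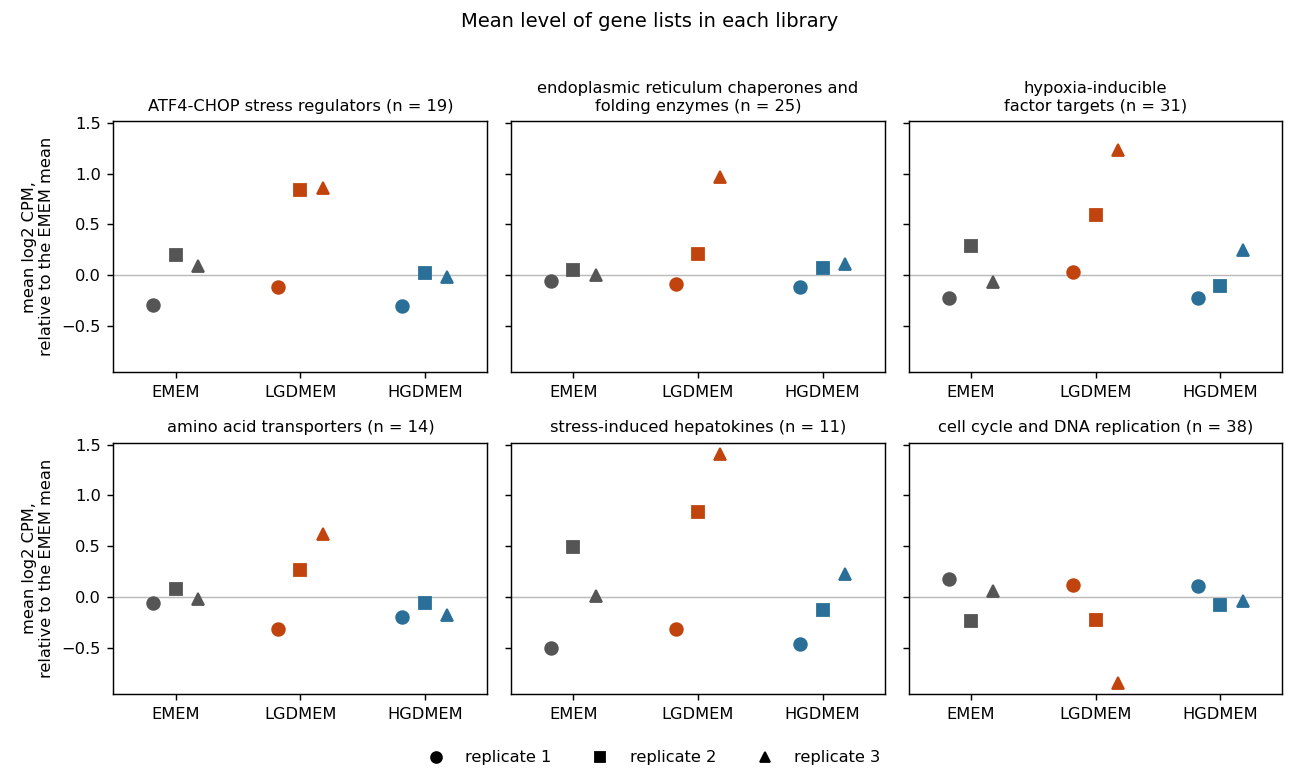
Mean log2 CPM of 6 gene lists in each library, relative to the mean of the EMEM libraries, with 1 point per library and shapes for replicate numbers. LGDMEM 1 lies near EMEM in the stress lists other than the amino acid transporters, where it is below every EMEM library (−0.32). LGDMEM 3 is highest in the ER chaperones (0.96) and HIF targets (1.23) and lowest in the cell cycle list (−0.84).

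In HGDMEM the same lists lay at the level of EMEM. Their median log2 fold changes of HGDMEM against EMEM, a comparison that shares the EMEM libraries, were −0.06 for the ATF4-CHOP regulators, 0.01 for ER chaperones, −0.13 for HIF targets and −0.15 for hepatokines. Of the 23 ER chaperones of at least 10 CPM 1 spanned 2-fold or more among the HGDMEM libraries. No list was tested as a set, and the medians describe these libraries. In 6 of the 8 stress lists (ATF4-CHOP, amino acid transport, ER chaperones, unfolded protein response, HIF targets and hepatokines), replicate 1 had the lowest list level in each of LGDMEM, HGDMEM and EMEM, and the part of the replicate number in the differences above was not tested beyond the fit with the block.

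The number of stress genes called with all libraries depended on the test. The lists were chosen with earlier results known, so these counts are descriptions. Of the 154 genes of the 8 lists edgeR called SDF2L1 alone, beside 0.0731% of all genes tested. DESeq2 called 11, beside 63 of all 7972 genes to which it gave an adjusted p (0.790%). Higher were DDIT3, SESN2, CTH, GOT1, SDF2L1, CRELD2, ADM, EPO, ANGPTL8 and FAM162A, a mitochondrial HIF target, and CREB3L3 was lower. The edgeR fit with the replicate block called 3, which were DDIT3, SDF2L1 and GDF15, beside 15 of all genes tested (0.137%). With limma voom, in the fit to the 6 libraries and in that without Plasmax, 0 were called.

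Across all genes, 871 of the 7806 of at least 10 CPM (11.2%) spanned at least 2-fold among the LGDMEM libraries, called uneven from here on, against 445 (5.70%) in EMEM, 403 in HGDMEM and 520 in Plasmax. Of the 871, 158 were uneven in EMEM too and 713 were not. In 233 of them LGDMEM 1 was lowest and LGDMEM 3 highest, in 245 the reverse, and in 121 LGDMEM 1 was lowest and LGDMEM 2 highest. Of 135 genes of at least 10 CPM in the 8 stress lists described above (ATF4-CHOP, amino acid synthesis and transport, tRNA synthetases, ER chaperones, unfolded protein response, HIF targets and hepatokines), 55 were uneven in LGDMEM and 15 in EMEM, beside the 11.2% and 5.70% of all genes. The lists were chosen with earlier results in view, so the count is a description.

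**Figure D4:**
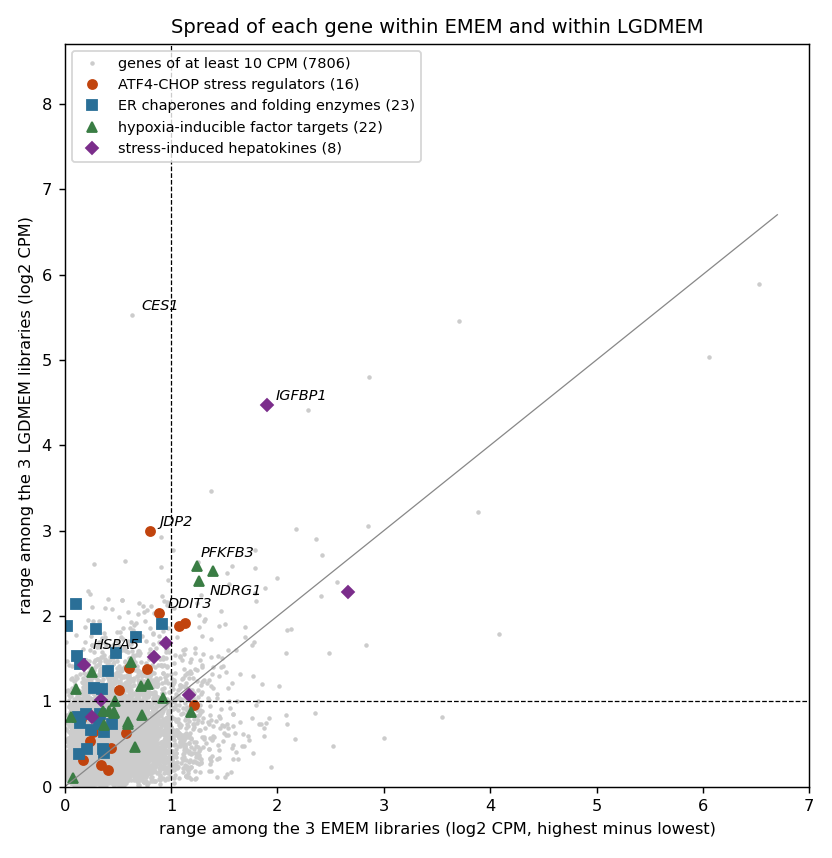
Range among the 3 LGDMEM libraries against the range among the 3 EMEM libraries for each of 7806 genes (log2 CPM), with 4 stress lists marked, dashed lines at 2-fold and a line of equal range. Of the 23 ER chaperones marked, 11 reach 2-fold on the LGDMEM axis and 0 on the EMEM axis, and IGFBP1 reaches 4.47 on the LGDMEM axis.

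The 12 genes with the widest LGDMEM range were of mixed kinds. IGFBP1 had a range of 4.47 log2 units in LGDMEM and 1.90 in EMEM. JDP2, a bZIP repressor of the ATF4-CHOP list, was at 3.79, 33.0 and 21.7 CPM in LGDMEM and 10.4, 18.5 and 18.5 CPM in EMEM. DEPP1, a FOXO-responsive gene, was at 18.2, 54.5 and 204 and 56.1, 146 and 107 CPM, and TNS1, a focal adhesion protein, at 2.52, 8.65 and 62.3 and 3.40, 13.9 and 2.52 CPM. CES1, a liver carboxylesterase, went the other way, with 91.1, 67.0 and 1.58 CPM in LGDMEM and 82.3, 52.9 and 77.4 CPM in EMEM, low in LGDMEM 3 alone. For EIF3C, EIF3CL, BOLA2B, EEF1A1, ATP5MGL, RPS9 and CXorf40A, near-identical copies or pseudogenes exist to which the counting could assign the same reads, so their single values are uncertain. EIF3C and EIF3CL summed gave 278, 109 and 119 CPM in LGDMEM and 138, 119 and 126 CPM in EMEM.

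Leaving out LGDMEM 1 raised the number of called genes from 8 to 87 (0.795% of those tested), 64 higher (0.585%) and 23 lower in LGDMEM, and all 8 genes stayed called. In 40 of the 64 higher genes, the omitted LGDMEM 1 was not above the highest EMEM library. In 8 of the 23 lower genes it was not below the lowest EMEM library. Of the 64 that rose, 29 belong to the 8 stress lists, which hold 154 of the genes tested (1.41%). In each of these lists LGDMEM 1 was the lowest LGDMEM library for most members of at least 10 CPM. Leaving it out therefore raises their fold changes by construction. The lists were also chosen with earlier results known, so the counts and p-values of their members without LGDMEM 1 are descriptions. Without LGDMEM 1 the ATF4-CHOP list had 6 called members and a median of 0.80, the ER chaperones 6 and 0.45, the HIF targets 6 and 0.63, and the hepatokines 4 and 1.38. DDIT3 had the lowest p (2.13, SE 0.22, edgeR adjusted p = 0.00012). Others among the 10 lowest were SDF2L1, STC2 (1.38), TXNIP (−2.86), HERPUD1 (1.67), SAT2, GDF15 (1.59), SOBP (−1.10) and SESN2 (1.51). HSPA5 and HYOU1 (1.25) were called as well. Of 38 cell cycle genes 2 fell without LGDMEM 1, beside 23 of all 10945 genes tested. They were E2F1 (−0.92) and the replication clamp PCNA (−0.92), PCNA being named after its value was seen. In 35 of the 38, LGDMEM 1 was the highest LGDMEM library. Leaving it out therefore lowers their fold changes by construction, and these 2 calls are descriptions as well.

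Without LGDMEM 3 there were 11 called genes (0.101%), 5 higher and 6 lower, and 4 of the 8 were among them. MATN3, the cartilage matrix protein matrilin-3, had the lowest p. Its level was 91.4, 93.6 and 178 CPM in LGDMEM and 225, 282 and 240.0 CPM in EMEM, and its log2 fold change went from −1.04 (edgeR adjusted p = 0.0651) to −1.43 (edgeR adjusted p = 0.000215). LGDMEM 3 was the LGDMEM library nearest to EMEM for MATN3, so its omission widens the difference by construction. HGDMEM had 83.8, 89.1 and 108 CPM, called against EMEM (−1.41). With all libraries MATN3 was called by DESeq2 (adjusted p = 0.000742), and also with limma voom, library-size scaling and the replicate block. IL11, a cytokine of the IL-6 family, was at 21.2, 43.2 and 19.5 CPM in LGDMEM and 11.7, 10.9 and 8.84 CPM in EMEM (1.64 without LGDMEM 3). Of the 8 stress lists ANGPTL8 alone was called there (2.30, edgeR adjusted p = 0.0311), a gene also called in HGDMEM against EMEM. For IL11 and ANGPTL8 too, the omitted LGDMEM 3 was the LGDMEM library nearest to EMEM. Without LGDMEM 2 there were 3 called genes (0.0274%), TXNIP, SAT2 and the protease gene FURIN, and 0 from the stress lists.

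**Figure D5:**
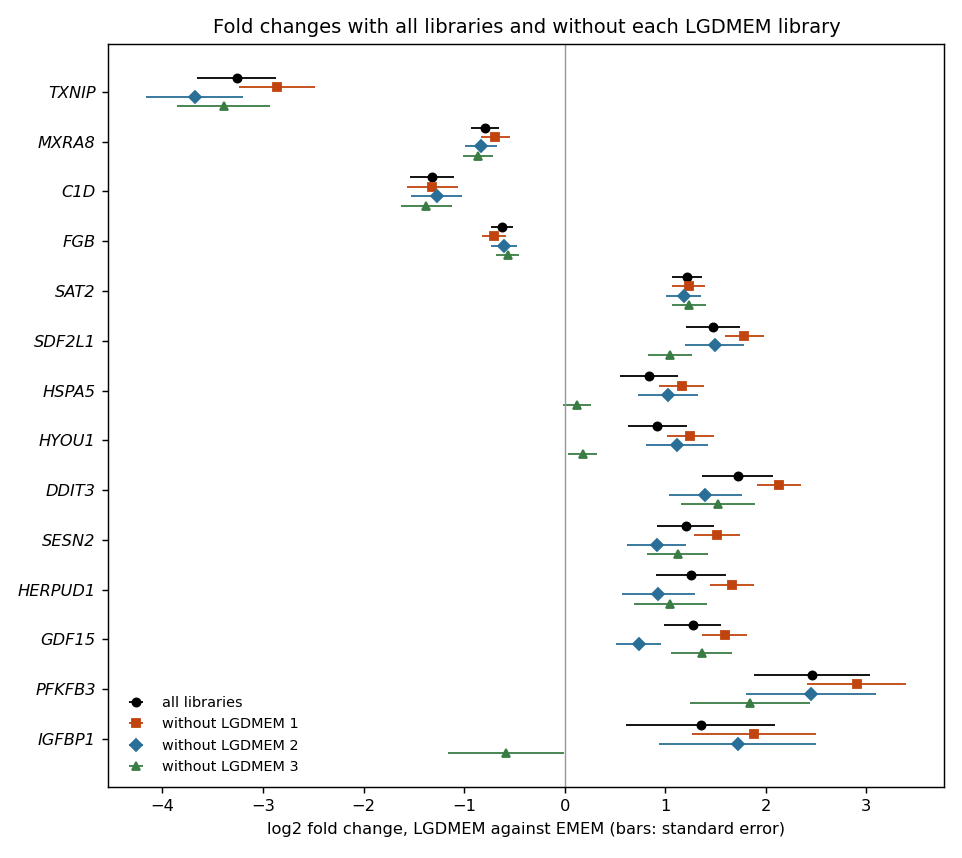
Log2 fold change of LGDMEM against EMEM for 14 genes with all libraries and without each LGDMEM library in turn, with bars for the standard error. TXNIP, MXRA8, C1D, FGB and SAT2 stay on their side of 0 in each fit, HSPA5 and HYOU1 drop to 0.12 and 0.18 without LGDMEM 3, and IGFBP1 goes to −0.58.

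The series title concerns iron, and no iron gene was called by edgeR with all libraries. Of 23 measured genes of iron uptake, storage, export and sensing 0 were called, 12 were above 0, and the median was 0.02. FTL, the ferritin light chain, had every LGDMEM library above every EMEM library, at 7526, 7807 and 7858 CPM and 5825, 5618 and 5769.8 CPM (0.43, SE 0.09, edgeR adjusted p = 0.0926). FTL was called without LGDMEM 1 (0.45, edgeR adjusted p = 0.0367), with DESeq2 (adjusted p = 0.00618) and with limma voom (adjusted p = 0.0449). LGDMEM 1 was the lowest LGDMEM library for FTL, so its omission raises the fold change by construction. FTH1, the heavy chain, was at 295, 343 and 323 and 252, 256 and 347 CPM (0.17). TFRC, the transferrin receptor, was at 337, 300.0 and 331 CPM in LGDMEM and 306, 316 and 335 CPM in EMEM (0.02). HAMP, which encodes the iron hormone hepcidin, was uneven in LGDMEM at 41.1, 67.6 and 21.1 CPM and even in EMEM at 44.9, 47.9 and 40.0 CPM (−0.03). The iron exporter SLC40A1 had −0.46, the haem oxygenase HMOX1 0.56, albumin (ALB) 0.16 and alpha-fetoprotein (AFP) −0.22, none called.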

How the data were processed

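The deposited table gives raw counts of each gene, as whole numbers that the authors had not normalized, for QuantSeq 3′ libraries of 4 media with 3 libraries each. Per the submitters' processing notes, the tools were STAR 2.7.5b, featureCounts 1.6.3, cutadapt 1.16, FastQC 0.72 and limma 3.40.6 on build hg19/GRCh37, in roles that the notes leave out. Rows of low counts are missing from it by a rule not given in the sources used here. The 601 rows without a symbol (2.92% to 3.71% of counts) were left out, and 0 columns belonged to other samples. Genes are named by symbol as deposited, with no coordinates.

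From these counts, edgeR 4.0.16 (R 4.3.3) was fitted to all 12 libraries with TMM scaling, a mean per medium and no block, since nothing in the labels ties equal replicate numbers to a shared culture. Tests were two-sided quasi-likelihood F tests with Benjamini-Hochberg adjustment over 10945 genes at 0.05, and the low-count filter removed 0 genes. The fit had 8 residual and 10.4 prior degrees of freedom and a biological coefficient of variation of 0.215. Standard errors are the log2 fold change over the square root of F. Log2 CPM values, averaged over a list's members for its level, used a prior count of 2. A gene was called uneven in a medium when its 3 libraries spanned at least 1 log2 unit and its mean over the 6 libraries was at least 10 CPM. A count of 3 over a medium was the floor for a fold change, covering counting error only. The code was tested on simulated counts.

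The comparison, the 31 lists (505 measured genes) and the rule for named genes were chosen with earlier results of these data known. The rule names called genes, members of 4 stress lists, the 2 largest rises and falls of each other list, the 12 widest LGDMEM ranges, the 10 lowest p-values without LGDMEM 1 and without LGDMEM 3, and 10 fixed genes. Some genes that the rule names are not reported here. Promoters are RefSeq windows of GRCh38.p14, from 250 bases before to 50 after the start, and the 3 motifs were searched on both strands. The third motif, TGATGNAA for C/EBP-ATF sites, matched 4 of 17 ATF4-CHOP promoters and 3.62% of all windows. Alternatives were other scalings (RLE, upper quartile, library size), filters, DESeq2 1.42.0, limma voom 3.58.1, fewer libraries in the fit, a replicate block, a threshold of 0.01 and leaving out each library.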

Additional observations from a re-analysis of the deposited data

How the results depend on the processing

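The 8 calls between LGDMEM and EMEM became 63 with DESeq2 (33 higher, 30 lower), 2 in a fit to the 6 libraries alone, 4 without the Plasmax libraries and 2 at an adjusted p of 0.01. RLE, upper-quartile and library-size scaling, no filter, a 5 CPM filter and limma voom gave 7 to 10. Leaving out single libraries gave 2 to 87, with 3 without LGDMEM 2 and 87 without LGDMEM 1. SAT2 was called in all 17 alternatives, TXNIP in all but limma voom and the 6-library fit, and the others were lost in 6 (CARHSP1, C1D), 7 (MXRA8), 8 (FGB, SOBP) or 9 (SDF2L1). None of the 8 reversed. With the replicate number as a block there were 15 calls (8 higher, 7 lower), and 15 in place of 7 between LGDMEM and HGDMEM. Same-numbered LGDMEM and EMEM libraries correlated in their deviations at 0.166, 0.0755 and 0.0119 (0.325, 0.193 and −0.012 over 4366 genes above a log2 CPM of 5). LGDMEM 1 and 2 correlated best with their own number and LGDMEM 3 with EMEM 2. The numbers were not taken as pairs, since nothing in the labels ties equal numbers to a shared culture. A shared effect of the replicate number was not tested beyond the fit with the block. Uneven genes numbered 1422 from 5 CPM and 464 from 20 CPM, in place of 871, since more or fewer genes enter. Leaving out single libraries took HSP90B1 from −0.18 to 0.67 and IGFBP1 from −0.58 to 2.00. LDHA went from −0.015 to 0.96, TFRC from −0.015 to 0.068 and HAMP from −0.51 to 0.30, and the cause was not tested. List medians moved by more than the spread for 4 of 31 lists without LGDMEM 3 and for 2 without LGDMEM 1. With 3 libraries a medium, genes of a few CPM are measured with little precision.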

Other observations

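Several other gene groups split the LGDMEM libraries without any member called by edgeR with all libraries and no block. Of the immediate early, acute phase and NRF2 target genes below, DESeq2 called EGR1, SAA4, SQSTM1 and FTL. The edgeR fit with the replicate block called EGR1 and IER3 of them, and limma voom called FTL. Immediate early genes, the first transcription factors and phosphatases induced by growth signals, had list levels of −0.25, 0.50 and 0.46 in LGDMEM and −0.28, 0.31 and −0.03 in EMEM, with LGDMEM 1 lowest in 11 of 13 members of at least 10 CPM. EGR1 was at 24.0, 64.1 and 27.2 CPM in LGDMEM and 9.22, 23.1 and 12.6 CPM in EMEM, and DUSP5, an ERK phosphatase, at 8.58, 31.8 and 20.8 and 8.74, 8.54 and 1.68 CPM. Acute phase proteins were split in both media, with 6 of 10 members uneven in LGDMEM and 2 in EMEM. SAA4, a constitutive serum amyloid A protein, had every LGDMEM library above every EMEM library, at 19.2, 16.7 and 15.2 and 6.07, 5.34 and 6.10 CPM (1.54, not called), and HGDMEM had 31.9, 24.7 and 17.1 CPM. NRF2 targets were highest in LGDMEM 2 in 15 of 22 members, at list levels of −0.01, 0.40 and 0.15. Insulin and FOXO responsive genes, which include IGFBP1, ran from −0.35 in LGDMEM 1 to 0.42 in LGDMEM 3, against −0.15, 0.22 and −0.07 in EMEM. Of their 9 members of at least 10 CPM 2 were uneven in LGDMEM and 1 in EMEM.

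Cholesterol synthesis and uptake genes ran the other way, at 0.28, 0.08 and −0.30 in LGDMEM, with LGDMEM 3 lowest in 19 of 22 members. Metallothionein 1G (MT1G) was at 2223, 1721 and 611 CPM in LGDMEM and 1416, 720.4 and 1415 CPM in EMEM, while MT2A was at 5578, 7184 and 7912 and 5616, 5058 and 5350.3 CPM, so these 2 metal-binding proteins had LGDMEM 3 at opposite ends. Other groups differed little among the LGDMEM libraries. Of 18 cytosolic heat shock proteins 5 were above 0, at list levels of −0.14, −0.04 and −0.13 in LGDMEM and −0.24, 0.16 and 0.08 in EMEM. HSPA1A was at 78.2, 131 and 133 CPM against 90.5, 211 and 231 CPM, and its near-identical copy HSPA1B, which may share its reads, at 26.5, 26.5 and 36.9 against 30.3, 56.1 and 53.6 CPM. Nuclear-encoded respiratory chain genes had 1 of 31 members uneven in LGDMEM, and fibrinogen and coagulation genes 0 of 14.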
